A study of Arabidopsis with 9 samples.

Results

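The plastid genome of Arabidopsis was represented in the deposited table by 61 loci of 31747, chosen as every locus with a gene name that starts with ATCG. They carry 133 gene identifiers, and the same 61 are all the loci that the table places on the plastid chromosome. The plastid genome encodes core subunits of the photosystems, the cytochrome b6f complex, the ATP synthase and the NDH complex, which carries electrons around photosystem I, together with the large subunit of Rubisco, part of the plastid ribosome and its rRNAs and tRNAs. Its genes are transcribed by a bacterial-type polymerase with plastid-encoded core subunits, which needs sigma factors from the nucleus, and by phage-type polymerases that are wholly nuclear. Most plastid genes lie in operons, whose long transcripts are cut, spliced, edited and protected by nuclear-encoded proteins.

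RNA was sequenced from whole 14-day-old seedlings grown in long days without treatment. The labels give 3 biological replicates each of the mutants syd-5 and swi3d-1, and 3 of the wild type (WT). SYD encodes the motor protein, an ATPase, of nuclear chromatin remodelling complexes of the SWI/SNF type, and SWI3D encodes a scaffold subunit of such complexes. The table holds syd-5, a condition whose name matches no label, and WT. That condition is called the unmatched condition here and is not given as swi3d-1, the only labelled genotype with no entry under its own name. The labels do not give the nature of the alleles.

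The values are the authors' deposited FPKM, fragments normalised to transcript length and library size, with 1 pooled value for each locus in each condition. Values per replicate and read depths are not in the table, so neither an SD nor an interval nor a detection limit can be given. The only measure of error is the deposited test statistic, and dividing the size of a log2 ratio by it gives the implied standard error quoted below. At the median over loci, the authors' p-values correspond to normal deviates 1.74 times as large as that statistic. A ratio can thus pass q < 0.05 at less than 2 implied errors. The factor differs between loci and is larger at some plastid loci with several names. There the implied error is wide beside the authors' p. In the authors' deposited table SYD (AT2G28290) had 4.11 FPKM in syd-5, 24.3 in the unmatched condition and 23.1 in WT, and SWI3D (AT4G34430) had 16.0 in syd-5, 3.81 in the unmatched condition and 16.4 in WT. No genotype was assigned from them.

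Gene names were assigned from position, because the reference gene table does not carry ATCG identifiers. Of the 42 loci that stand alone at their position, 35 have exactly the start and end of 1 plastid gene in RefSeq and 2 share 1 end with it. The remaining 5 met neither rule and stay unnamed, whether or not they overlap a gene there. Counts of tRNA, rRNA and protein-coding loci below cover named loci only, so genes of these classes may be among the 5. The other 19 loci share a span with further identifiers, and their names can be given only for the span. The largest span (plastid genome, 36699 to 93358, TAIR10) holds 56 RefSeq genes in 2 loci, among them psaA, psaB, rbcL, atpB, petA, psbB and accD. The span from 6451 to 29886 holds 18 genes in 10 loci, including 4 for ATP synthase and 3 for the plastid-encoded RNA polymerase (rpoB, rpoC1 and rpoC2). The span from 114461 to 129926 holds 11 genes in 2 loci, 6 of them for NDH subunits. Reads of a locus with several names cannot be split between its genes.

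Most plastid loci had no measurable level in the authors' deposited table. At 40 of the 61, all 3 conditions were listed at 0. These comprised all 19 named tRNA loci, 3 of 7 named rRNA loci and 5 of 6 named single ribosomal protein loci (rps16, rps7 at 2 places, rpl2 and rpl23). They also held ndhB at both its places, ycf2, the 5 unnamed single loci and 5 loci that share a span. The 4 other named rRNA loci did not reach 0.1 FPKM in any condition. The 16S rRNA locus rrn16S (ATCG00920) had 0.0435 FPKM in syd-5, 0.0714 in the unmatched condition and 0.0782 in WT, and rrn23S (ATCG00950) had 0.0567 in syd-5, 0.0930 in the unmatched condition and 0.0565 in WT. The 16S and 23S molecules are parts of every plastid ribosome, so a value near 0 is no measure of the rRNA in the seedlings. The selection of RNA before sequencing is not given in the sources used here.

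Short loci and doubled genes were mostly among the zeros. Of the 21 single loci shorter than 200 bases, 2 were above 0 in any condition, rpl32 and psbZ. Of the 21 single loci of at least 200 bases, 5 were above 0. All 7 named single protein-coding loci whose gene RefSeq lists at 2 places, as genes of the inverted repeat are, were at 0 in all 3 conditions. Whether length or doubling set these zeros was not tested. Of the 19 loci that share a span or have several names, 14 were above 0.

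**Figure D1:**
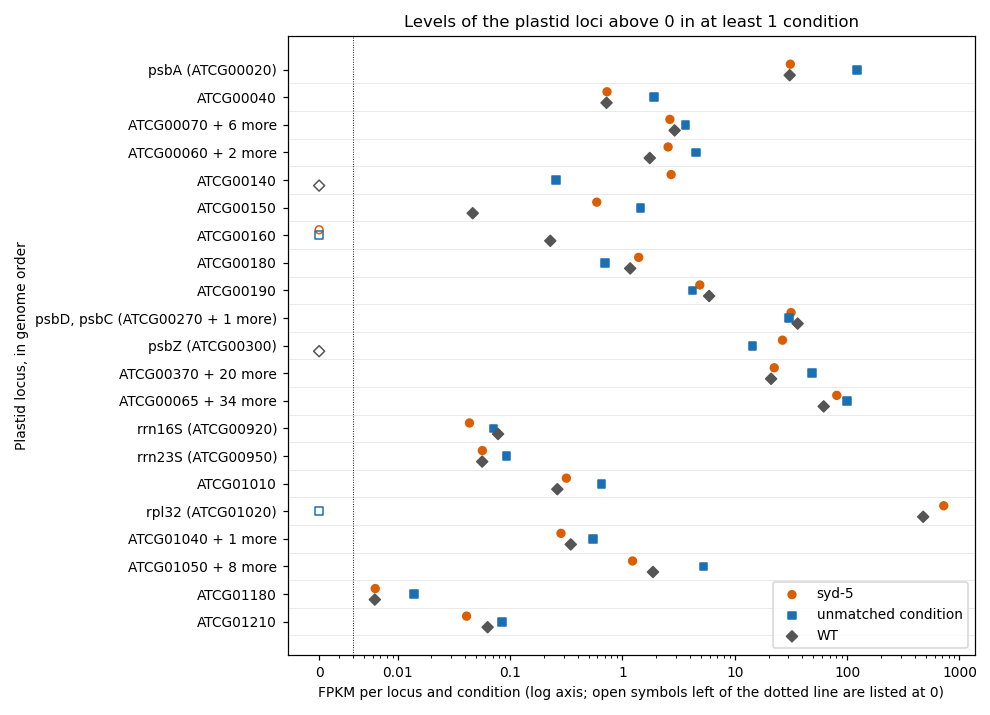
FPKM in syd-5, the unmatched condition and WT (log axis) for the 21 plastid loci above 0 in at least 1 condition, 1 pooled value per point. psbA stands apart in the unmatched condition at 121.9 FPKM, against 31.3 in syd-5 and 30.8 in WT, while the locus of psbD and psbC has 31.7 in syd-5, 30.6 in the unmatched condition and 36.3 in WT.

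The gene psbA encodes the D1 protein of the photosystem II reaction centre, the subunit that is damaged by light and replaced fastest. Its locus (ATCG00020, plastid genome, 383 to 1444, TAIR10) had 31.3 FPKM in syd-5, 121.9 FPKM in the unmatched condition and 30.8 FPKM in WT in the authors' deposited table. The level in the unmatched condition was 3.95 times that in WT, with a log2 ratio of 1.98 and an implied standard error of 0.304 (Cuffdiff q = 0.000567). For syd-5 that ratio was 0.02 ± 0.249 (implied standard error, Cuffdiff q = 0.956). The level in the unmatched condition thus stood apart from the nearly equal levels in syd-5 and WT. Among all loci, psbA ranked 5220 by FPKM in syd-5, 1277 in the unmatched condition and 5369 in WT. In whole seedlings a change in the number of cells of a type and a change in RNA per cell cannot be told apart. All plastid loci together held 0.0732% of FPKM in WT, and the selection of RNA before sequencing is not given. A change in the share of psbA RNA that entered the libraries therefore cannot be told apart from these either, and was not tested.

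No such difference was called at the locus of psbD and psbC. These genes encode the D2 protein, the partner of D1, and the inner antenna protein CP43 of photosystem II. The locus (ATCG00270 and ATCG00280, plastid genome, 32711 to 35141) had 31.7 FPKM in syd-5, 30.6 in the unmatched condition and 36.3 in WT in the authors' deposited table. Against WT the log2 ratios were -0.19 ± 0.244 in syd-5 (implied standard error, Cuffdiff q = 0.364) and -0.24 ± 0.270 in the unmatched condition (Cuffdiff q = 0.290), both within 1 error of no change. The third photosystem II locus, psbZ (ATCG00300), which encodes a small subunit, had 26.6 FPKM in syd-5, 14.4 in the unmatched condition and was listed at 0 in WT. It is 189 bases long and was not tested in either comparison.

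In syd-5, 0 of 13 tested plastid loci passed q < 0.05 in the authors' deposited Cuffdiff comparison with WT, against 27.1% of all 19236 tested loci. None of the 13 had an unadjusted p under 0.05 either, which 37.3% of all tested loci had, and the smallest q among them was 0.364. Of the 13, 9 had a higher value than in WT and 4 a lower one. The median log2 ratio of the 12 with a level in both conditions was 0.06, beside 0.01 over all tested loci. The plastid loci were known less precisely than most, with a median implied standard error of 0.852 against 0.302 over all tested loci. A change of 1 in log2 was thus smaller than 2 such errors at many of them, though 2 implied errors are not the limit of a call.

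In the unmatched condition, 3 of 13 tested plastid loci rose and 0 fell in the authors' deposited Cuffdiff comparison. Of all 19233 tested loci, 27.3% were called in either direction and 13.4% rose. Of the 3, ATCG01010 was tested in the unmatched condition and not in syd-5. Of the 11 loci tested in both comparisons, 2 were called in the unmatched condition and 0 in syd-5. An unadjusted p under 0.05 was seen at 4 of the 13 loci, beside 37.4% of all. The median log2 ratio of the 13 was 1.20, beside -0.01 over all tested loci, with 10 above and 3 below WT. It leaves out rpl32, which was listed at 0 there and not tested. Over all 21 plastid loci above 0, on the scale of log2(FPKM + 1), the median difference from WT was 0.25, and 0.039 among those with 1 gene name. The implied standard error of the tested ratios had a median of 0.993 against 0.302 over all tested loci. Most of the 10 higher values lay within 2 such errors of no change. ATCG01010, which was called, is among these, so 2 implied errors are not the limit of a call. Both comparisons share the WT values. Root markers, a sign of how much non-green tissue a seedling library holds, moved in these conditions too: of 14, all above 0 in every condition, 6 rose and 1 fell in syd-5, and 5 rose and 1 fell in the unmatched condition. Of all tested loci 13.6% rose and 13.6% fell in syd-5, and 13.4% rose and 13.9% fell in the unmatched condition. The summed FPKM of the root markers was 2640 in syd-5, 2288 in the unmatched condition and 1834 in WT. PYK10 alone held 2483, 2146 and 1722 of these sums and passed in neither comparison (Cuffdiff q = 0.141 in syd-5 and 0.393 in the unmatched condition). The marker that fell was IRT1, with a log2 ratio of -3.72 in both comparisons (Cuffdiff q = 0.000567). A part of root tissue in the plastid values was not tested.

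The other rises in the unmatched condition were at weakly expressed loci. ATCG00040 is 1 of 2 identifiers at the span of trnK, a tRNA gene with an intron, and matK, the splicing factor gene inside that intron (plastid genome, 1717 to 4347). It had 0.730 FPKM in syd-5, 1.91 in the unmatched condition and 0.723 in WT in the authors' deposited table, a log2 ratio of 1.40 in the unmatched condition with an implied standard error of 0.593 (Cuffdiff q = 0.00275) and of 0.01 in syd-5 (Cuffdiff q = 0.989). The other identifier there, ATCG00030, was at 0 in all conditions. ATCG01010 is 1 of 2 identifiers at the span of ycf1 and ndhF, an NDH subunit gene (plastid genome, 109405 to 112638), and had 0.317 FPKM in syd-5, 0.652 in the unmatched condition and 0.264 in WT. Its log2 ratio in the unmatched condition was 1.31 with an implied standard error of 0.773 (Cuffdiff q = 0.0344). In syd-5 it was not tested, so it entered the test only where it was highest. Neither reached 2 FPKM, and on the scale of log2(FPKM + 1) their rises were 0.76 and 0.39.

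The NDH-rich span from 114461 to 129926 had its larger locus just outside the threshold. That locus has 9 identifiers and stood at 1.23 FPKM in syd-5, 5.26 in the unmatched condition and 1.87 in WT in the authors' deposited table. Its log2 ratio was -0.60 in syd-5 (Cuffdiff q = 0.583) and 1.49 in the unmatched condition, with an implied standard error of 0.893 (Cuffdiff q = 0.0522). The second locus of the span, with ATCG01040 and ATCG01140, had 0.284 FPKM in syd-5, 0.548 in the unmatched condition and 0.347 in WT. It was tested in the unmatched condition alone, with a log2 ratio of 0.66 (Cuffdiff q = 0.698).

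The span with genes of both photosystems, Rubisco, cytochrome b6f and the ribosome had some of the highest plastid locus values. Its locus of 35 identifiers had 80.9 FPKM in syd-5, 99.96 in the unmatched condition and 61.9 in WT in the authors' deposited table. The log2 ratios were 0.39 in syd-5 (Cuffdiff q = 0.563) and 0.69 in the unmatched condition (Cuffdiff q = 0.297). Its locus of 21 identifiers had 22.5 FPKM in syd-5, 48.4 in the unmatched condition and 21.1 in WT, with log2 ratios of 0.09 in syd-5 (Cuffdiff q = 0.906) and 1.20 in the unmatched condition (Cuffdiff q = 0.241). The implied standard errors of the 4 ratios ran from 0.835 to 1.06, so no difference of this size could be told from 0. A change at a single gene of such a locus, rbcL or psaA for example, cannot be read from these values. Nor can the level of such a locus be compared with that of a locus of 1 gene.

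The span with the ATP synthase and RNA polymerase genes was low throughout. Its locus of 7 identifiers had 2.65 FPKM in syd-5, 3.64 in the unmatched condition and 2.92 in WT. Its locus of 3 identifiers had 2.55 FPKM in syd-5, 4.56 in the unmatched condition and 1.75 in WT, with implied standard errors above 2. It passed in neither comparison (Cuffdiff q = 0.757 in syd-5 and 0.613 in the unmatched condition). ATCG00190, the highest single identifier of the span, had 4.89 FPKM in syd-5, 4.20 in the unmatched condition and 5.92 in WT, with log2 ratios of -0.28 in syd-5 (Cuffdiff q = 0.591) and -0.49 in the unmatched condition (Cuffdiff q = 0.468). ATCG00180 had 1.40 FPKM in syd-5, 0.699 in the unmatched condition and 1.17 in WT. ATCG00150 had 0.591 FPKM in syd-5, 1.45 in the unmatched condition and 0.0466 in WT, and its log2 ratios of 3.67 and 4.96 had implied standard errors of 10.2 and 10.1, so their size is not known. ATCG00140 had 2.71 FPKM in syd-5, 0.258 in the unmatched condition and was listed at 0 in WT, and ATCG00160 was above 0 in WT alone, at 0.228 FPKM. Of the 10 loci of the span, 6 were tested in syd-5 and 5 in the unmatched condition, and none of these passed the threshold.

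The locus rpl32 (ATCG01020, plastid genome, 113449 to 113607), a ribosomal protein gene of 159 bases, had the highest plastid value in syd-5 and WT. It had 725 FPKM in syd-5, was listed at 0 in the unmatched condition and had 476 in WT in the authors' deposited table. In syd-5 its log2 ratio of 0.61 came with a test statistic of 197 but with q = 0.840, so the error implied by the statistic is not usable there. In the unmatched condition the locus was not tested. It made up 77.5% of the summed plastid FPKM in syd-5 and 74.2% in WT. The summed FPKM of all 61 loci was 935 in syd-5, 339 in the unmatched condition and 641 in WT. Without rpl32 it was 210 in syd-5, 339 in the unmatched condition and 166 in WT, which turns the unmatched condition from 0.528 times the WT sum to 2.05 times. Of the sum without rpl32, psbA made up 14.9% in syd-5, 36.0% in the unmatched condition and 18.6% in WT. With rpl32, plastid loci held 0.115% of all FPKM in syd-5, 0.0419% in the unmatched condition and 0.0732% in WT. With rpl32 left out of both sums, the shares were 0.0260% in syd-5, 0.0419% in the unmatched condition and 0.0189% in WT. The order of the conditions thus depends on this 1 locus.

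**Figure D2:**
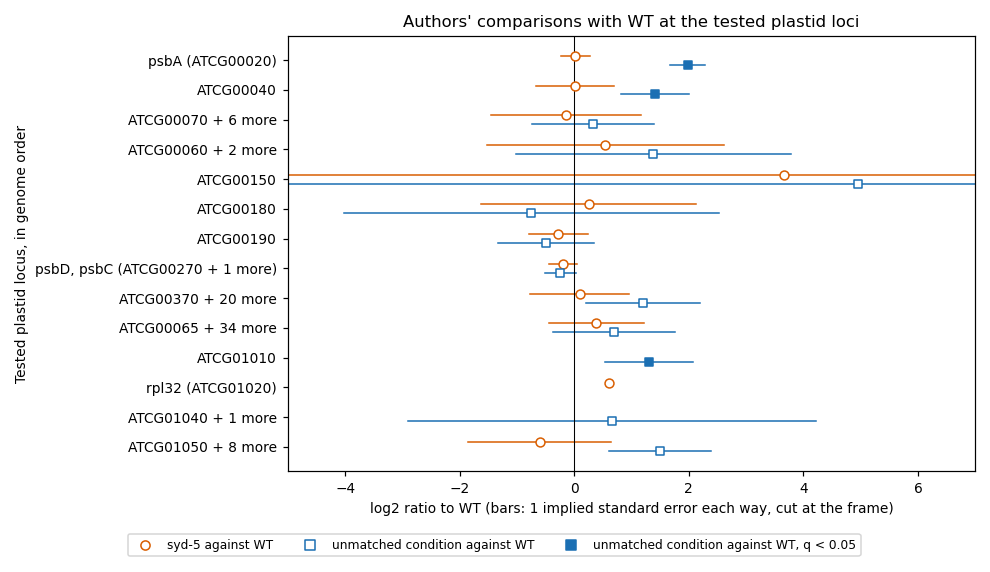
Log2 ratio to WT of the plastid loci with a tested ratio in syd-5 (circles) and the unmatched condition (squares), with 1 implied standard error each way. Filled symbols passed q < 0.05, which were psbA, ATCG00040 and ATCG01010 in the unmatched condition, and rpl32 has no bar because its implied error is not usable.

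The difference between the unmatched condition and syd-5 was then tested over all 18993 loci with an error in both comparisons, as the difference of the log2 ratios over its combined implied error. For psbA it was 1.96 with a standard error of 0.393 (normal approximation, Benjamini-Hochberg q = 0.00360 over all loci). Of all these loci 3 passed, 0.0158% of those tested (0.0105% higher in the unmatched condition), and the other 2 were SYD (2.56) and SWI3D (-2.07). Of the 11 plastid loci in this test, 1 passed and 1 had an unadjusted p under 0.05. For ATCG00040 the difference was 1.39 with an error of 0.907 and did not pass, and for the locus of psbD and psbC it was -0.05 with an error of 0.364. The test is insensitive, since on simulated data for this comparison over 18993 loci it recovered 4% of differences of 1 in log2 and 53% of differences of 2, so a p that missed the threshold does not show that the unmatched condition and syd-5 had the same level. With errors taken on the scale of the authors' p, 17 loci passed, and psbA was again the only plastid locus among them.

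Mitochondrially encoded loci, those of the other organelle genome, were set beside the plastid ones. The table holds 133 with a name that starts with ATMG, of which 81 were at 0 in all conditions. In the authors' deposited Cuffdiff comparisons 3 of 18 tested rose in syd-5 and 2 of 16 in the unmatched condition, with 0 falls in both. These are 16.7% and 12.5% of those tested, near the 13.6% and 13.4% of all tested loci that rose. Their median log2 ratio was 0.54 in syd-5 and 0.54 in the unmatched condition, where the plastid loci had 0.06 and 1.20 over sets of tested loci that differ between the comparisons. Over all loci above 0, on the scale of log2(FPKM + 1), the plastid median difference from WT was 0.01 in syd-5 and 0.25 in the unmatched condition, and the mitochondrial one was 0.17 in syd-5 and 0.12 in the unmatched condition. Whether the organelles differ in this was not tested.

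**Figure D3:**
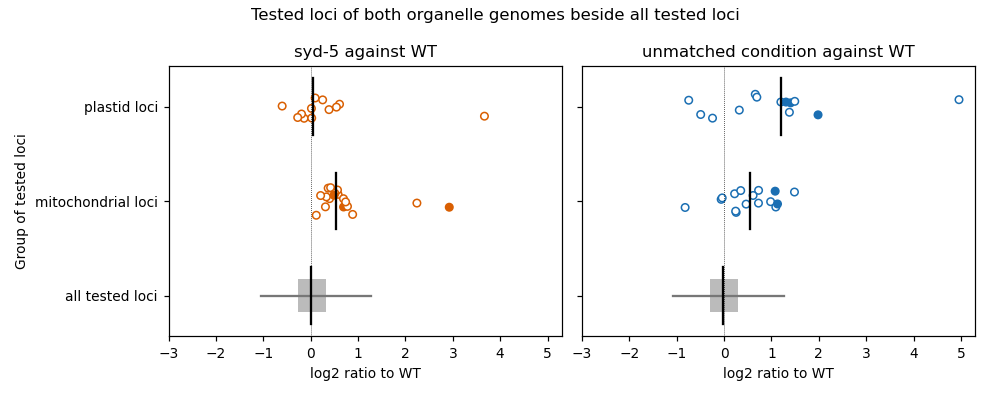
Log2 ratio to WT of tested plastid and mitochondrial loci (points, filled where q < 0.05) beside all tested loci (bar from the lower to the upper quartile, line from the 5th to the 95th percentile), in syd-5 and in the unmatched condition, with black ticks at the medians. The plastid median is 0.06 in syd-5 and 1.20 in the unmatched condition, and the mitochondrial one is 0.54 in both.

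Nuclear genes that serve plastid transcription and RNA processing fell wherever they were called, in syd-5 and the unmatched condition. The list of 42 also holds RPOTm, the mitochondrial member of the phage-type polymerases. Of these 42, all tested, 14 fell and 0 rose in syd-5 in the authors' deposited Cuffdiff comparison, and 17 fell and 1, RPOTm, rose in the unmatched condition, beside 13.6% and 13.9% of all tested loci that fell. The median log2 ratio was -0.22 in syd-5 and -0.29 in the unmatched condition, beside 0.01 and -0.01 over all tested loci. Of 14 root markers, 6 rose and 1, IRT1, fell in syd-5, and 5 rose and 1, again IRT1, fell in the unmatched condition. Of all tested loci 13.6% rose in syd-5 and 13.4% in the unmatched condition. A part of root tissue in the nuclear falls was not tested.

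Sigma factors direct the plastid-encoded polymerase to promoters, and 3 of 6 fell in both of the authors' deposited comparisons. SIG5 (AT5G24120), a stress- and light-responsive sigma factor known for transcription of psbD, had 3.77 FPKM in syd-5, 4.18 in the unmatched condition and 14.1 in WT. Its log2 ratios to WT were -1.90 ± 0.305 in syd-5 and -1.75 ± 0.296 in the unmatched condition (implied standard errors, Cuffdiff q = 0.000567 in both). SIG1 (AT1G64860) had 31.0 FPKM in syd-5, 34.2 in the unmatched condition and 49.2 in WT, and SIG2 (AT1G08540), which serves tRNA gene transcription, had 51.0 in syd-5, 48.3 in the unmatched condition and 77.9 in WT, with Cuffdiff q = 0.000567 for each. SIG3 (log2 ratios 0.08 in syd-5 and 0.10 in the unmatched condition), SIG4 (-0.53 and -0.45) and SIG6 (-0.27 and -0.29) did not pass. The locus of psbD and psbC itself did not pass in either comparison.

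Of the phage-type polymerases 1 of 3 rose, in the unmatched condition. RPOTp (AT2G24120), the plastid enzyme, at a locus it shares with AT2G24110, had 21.1 FPKM in syd-5, 19.4 in the unmatched condition and 17.3 in WT and did not pass (Cuffdiff q = 0.0928 and 0.387). RPOTmp (AT5G15700), sent to both organelles, had 4.72 in syd-5, 3.90 in the unmatched condition and 4.12 in WT (q = 0.415 and 0.803). RPOTm (AT1G68990), the mitochondrial enzyme, had 9.06 FPKM in syd-5, 9.08 in the unmatched condition and 6.90 in WT, and rose in the unmatched condition (log2 ratio 0.40, Cuffdiff q = 0.0442), while in syd-5 a nearly equal log2 ratio of 0.39 just missed the threshold (q = 0.0502).

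Proteins attached to the plastid-encoded polymerase had 3 falls of 14 in syd-5 and 6 of 14 in the unmatched condition in the authors' deposited table, beside 13.6% and 13.9% of all tested loci. PTAC2 (AT1G74850), PTAC6 (AT1G21600) and PTAC7 (AT5G24314) fell in both, with log2 ratios of -0.74, -0.40 and -0.43 in syd-5 and -0.73, -0.39 and -0.53 in the unmatched condition. PTAC3 (AT3G04260, -0.34), the superoxide dismutase gene FSD3 (AT5G23310, -0.46, at a locus with 4 gene names) and PTAC12 (AT2G34640, -0.37) passed in the unmatched condition, and in syd-5 they had log2 ratios of -0.19, -0.41 and -0.21. Whether these differ between the unmatched condition and syd-5 cannot be read from the threshold alone.

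Among 19 genes of plastid RNA processing and editing, 8 fell in each comparison and 0 rose in the authors' deposited table, beside the same 13.6% and 13.9% of all tested loci that fell. CRP1 (AT5G42310), needed for translation of the cytochrome b6f subunit petA in maize, had 23.3 FPKM in syd-5, 24.3 in the unmatched condition and 43.9 in WT. HCF152 (AT3G09650), which acts on petB transcripts, had 9.11 FPKM in syd-5, 7.54 in the unmatched condition and 16.1 in WT, and HCF107 (AT3G17040), which acts on psbH transcripts, had log2 ratios of -0.79 in both. MRL1 (AT4G34830), which stabilises rbcL transcripts, had 43.3 FPKM in syd-5, 41.9 in the unmatched condition and 59.0 in WT. CRR2 (AT3G46790), of ndhB transcripts, and the RNA-binding protein genes CSP41B (AT1G09340) and CP33A (AT3G52380) fell in both comparisons too, with log2 ratios of -0.48, -0.48 and -0.36 in syd-5 and -0.55, -0.48 and -0.37 in the unmatched condition. CSP41A (AT3G63140) passed in syd-5 (-0.44) and had -0.36 in the unmatched condition, and PGR3 (AT4G31850) had -0.47 in syd-5 and passed in the unmatched condition (-0.91). HCF173 (AT1G16720), a factor for translation of psbA, shares its locus with AT1G16740 and is named after its values were seen. It had 142 FPKM in syd-5, 141 in the unmatched condition and 172 in WT and did not pass (Cuffdiff q = 0.337 and 0.318).

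**Figure D4:**
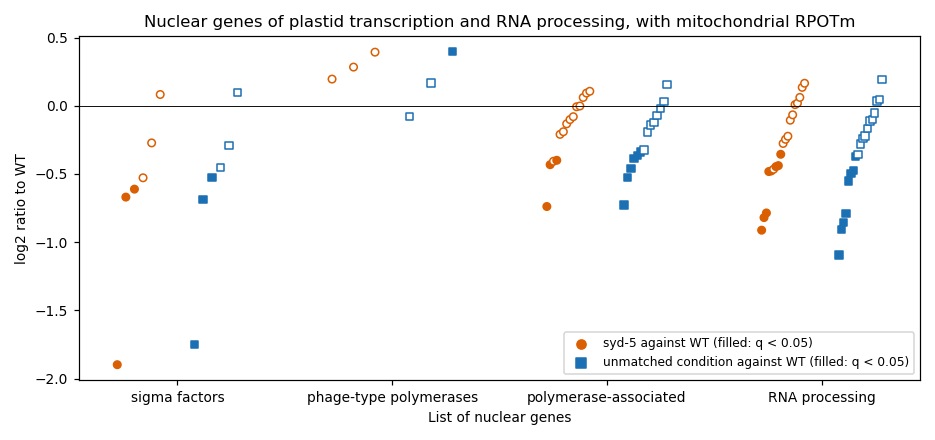
Log2 ratio to WT of 42 nuclear genes, those of plastid transcription and RNA processing with the mitochondrial polymerase RPOTm, in syd-5 (circles) and the unmatched condition (squares), ordered by value within each list, filled where q < 0.05. SIG5 is lowest, at -1.90 in syd-5 and -1.75 in the unmatched condition, and the filled symbols lie below 0 except RPOTm in the unmatched condition at 0.40.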

How the data were processed

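Gene expression was measured by RNA sequencing with total RNA as the starting material. Whether RNA was selected before sequencing is not given in the sources used here. Mapping used TopHat2 2.1.1 and quantification Cufflinks 2.1.1 with Cuffdiff 2.1.1 on the TAIR10 build, as far as the submitters' processing notes list tools. No source used here gives settings or strand, so antisense and overlapping genes are not separable. Levels are deposited FPKM pooled over replicates, per the file headers. A score (the deposited test statistic), a p-value and a q-value come with every tested locus, all deposited by the authors. The smallest Cuffdiff q quoted here, 0.000567, is shared by loci with ratios of different size, so it does not rank them.

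The planned moderated model needs values per library, so the fallback applied: a call is a tested locus with q < 0.05 in the authors' deposited table. Log2 ratios have no pseudocount unless named as log2(FPKM + 1). The implied standard error is the size of the log2 ratio over the test statistic. The test of the unmatched condition against syd-5, two-sided, adds the squared errors of both ratios. It counts the WT error in both, and it was added after the data were seen. In the simulated data each ratio had its implied error, with a WT part shared by both ratios. The simulated error of the difference was thus smaller than the test assumes. The test made 0 false calls there, which does not show how it does with errors as large as it assumes.

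Locus starts were raised by 1 to count from 1. Names came from plastid positions in the RefSeq gene table of TAIR10.1. The naming rule took called members, the highest and most changed member of each class, sigma factors, phage-type polymerases, called genes of the nuclear list and both targeted genes; the other plastid loci above 0 are described besides. The members and lists were chosen with earlier results of these data known. Python 3.11.15, pandas 2.3.3, numpy 2.4.6 and scipy 1.17.1 were used. The alternatives were q < 0.01, an adjustment within each comparison, filters of 1 and 5 FPKM, loci with 1 name, a pseudocount of 0.1, quantile normalization and equal sums of nuclear loci. Promoter motifs were planned and are not analysed here.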

Additional observations from a re-analysis of the deposited data

Results flagged for a closer look

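For psbA (ATCG00020) the log2 ratio to WT in the unmatched condition exceeded that in syd-5 by 1.96, and this difference between the conditions passed the test over all loci (normal approximation, Benjamini-Hochberg q = 0.00360, standard error 0.393). The levels were 121.9 FPKM in the unmatched condition and 31.3 FPKM in syd-5, each 1 pooled value. What share of the psbA RNA entered the libraries of each condition is not known.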

How the results depend on the processing

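No paired analysis was possible because the table holds 1 pooled value per condition and no columns per replicate, and for the same reason leaving out replicates was not run. The count of plastid loci called in syd-5 was 0 under every threshold, adjustment and filter tried. In the unmatched condition it was 3, and became 2 at q < 0.01 or with a mean of at least 1 FPKM, 4 with an adjustment within the comparison, and 1, psbA, with a mean of at least 5 FPKM. The nuclear genes called in the unmatched condition numbered 10 at q < 0.01, against 18. Mitochondrial calls in the unmatched condition were 1 at q < 0.01 and with a mean of at least 1 or 5 FPKM, and those in syd-5 were 1 among loci with 1 gene name.

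On the scale of log2(FPKM + 1) the median difference from WT of the 21 plastid loci above 0 was 0.01 in syd-5 and 0.25 in the unmatched condition. For the unmatched condition it was 0.53 with a pseudocount of 0.1, 0.18 after quantile normalization, 0.68 with a mean of at least 5 FPKM, 0.039 among loci with 1 gene name and 0.34 with equal sums of nuclear loci. For syd-5 it was 0.089 with a mean of at least 5 FPKM. The photosystem II median became 2.40 in syd-5 and 2.95 in the unmatched condition among loci with 1 gene name. Only psbA and psbZ remain there, at 0.02 and 4.79 in syd-5, and psbZ was listed at 0 in WT and not tested. With equal nuclear sums the median of all photosystem II loci was 0.13 in syd-5 and 2.06 in the unmatched condition. The rRNA median with a pseudocount of 0.1 was -0.10 in syd-5 and 0.14 in the unmatched condition, and after quantile normalization it was -0.01 in the unmatched condition, against 0.02. Equal nuclear sums shifted the median of all loci by 0.10 in syd-5 and 0.11 in the unmatched condition. Without rpl32 the plastid sum was 210 in syd-5 and 166 in WT. The difference of psbA in the unmatched condition ran from 1.95 to 2.06 under the pseudocounts and scalings. The cause of these shifts was not tested.

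With pooled values the spread between replicates at a plastid locus cannot be seen, and depth is unknown.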
